A study of Mus musculus with 4 samples.

Results

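The miR-148/miR-152 family is a set of 3 mouse miRNA genes, Mir148a, Mir148b and Mir152, whose main mature arms carry the same seed, the stretch of bases 2 to 8 that pairs with target messages. Every listed arm of miR-148a, miR-148b and miR-152 was taken by name from the deposited read counts, which gave 6 arms (3 3p and 3 5p) of 816 mouse miRNA names in all. Counts came from 4 small RNA libraries of sorted prostate cells: basal cells, sorted as Sca-1(+), lin(-) and CD49f(high), in 2 libraries, and luminal cells, sorted as Sca-1(+), lin(-) and CD49f(low), in 2 libraries. CD49f is an integrin that anchors cells to the basement membrane, and lin(-) means that cells stained for markers of other lineages were gated out. All libraries came from wild-type (WT) male C57Bl/6 mice aged 10 weeks. Whether the libraries of a group stem from different animals is not in the labels, and p-values therefore describe only how far these libraries spread, which may be technical. Luminal means the gate as labelled, since luminal cells of the prostate are often sorted instead as low in Sca-1.

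A miRNA is cut from a hairpin precursor, and usually 1 arm is loaded into an Argonaute protein, where its seed directs repression of messages with a matching site. The 3p arms of this family are the ones usually loaded. They are best known for repressing DNA methyltransferases, Dnmt1 among them, and miR-148a is known in human prostate cancer cell lines as a miRNA induced by androgen, the hormone on which luminal secretory cells depend.

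The mature arms are shown first because the comparison turns on miRNAs that differ by only a few bases. Sequences are those of RefSeq on GRCm38.p6, where all 6 arms were found, and capitals mark the seed.
miR-148a-3p: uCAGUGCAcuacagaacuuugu
miR-148b-3p: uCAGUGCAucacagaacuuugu
miR-152-3p: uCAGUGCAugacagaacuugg
miR-148a-5p: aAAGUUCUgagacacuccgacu
miR-148b-5p: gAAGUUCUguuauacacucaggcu
miR-152-5p: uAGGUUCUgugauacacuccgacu

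The 3p arms shared the seed CAGUGCA, which pairs with TGCACTG in a target. Of 1679 mature mouse miRNAs in the RefSeq table, these 3 were the only ones with that seed at bases 2 to 8. Counting positions from 1 at the 5′ end and giving the base of miR-148a-3p first, miR-148b-3p differed by C9U and U10C, and miR-152-3p by C9U, U10G and U20G over 21 shared positions. miR-148b-3p and miR-152-3p differed by C10G and U20G. The sources used here do not give the number of mismatches allowed in the authors' search, so reads with an error at position 9 or 10 could have gone to another member, which was not tested. Among the 5p arms, miR-148a-5p and miR-148b-5p shared the seed AAGUUCU, while that of miR-152-5p was AGGUUCU.

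The hairpins show where each arm lies, with both mature arms in capitals, the 5p arm first.
Mir148a: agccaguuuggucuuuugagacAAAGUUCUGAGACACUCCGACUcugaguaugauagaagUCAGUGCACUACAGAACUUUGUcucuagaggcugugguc
Mir148b: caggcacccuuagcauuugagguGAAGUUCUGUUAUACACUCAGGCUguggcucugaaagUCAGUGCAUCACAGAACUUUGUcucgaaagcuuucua
Mir152: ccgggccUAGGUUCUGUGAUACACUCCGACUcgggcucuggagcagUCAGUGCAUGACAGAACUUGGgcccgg

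On GRCm38, Mir148a lies at chr6:51269812-51269910 on the minus strand, in no other annotated gene (GENCODE M21). Mir148b lies at chr15:103285125-103285221 on the plus strand, in an intron of Copz1 on the same strand. Mir152 lies at chr11:96850393-96850465 on the plus strand, in an intron of Copz2, also on the same strand. Copz1 and Copz2 are paralogs that encode the zeta subunit of the COPI coat, which carries vesicles between the Golgi and the endoplasmic reticulum.

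The basal libraries held 1855718 (replicate 1) and 3278294 (replicate 2) miRNA reads, and the luminal libraries 1583830 (replicate 1) and 1501898 (replicate 2). Between 29.5% and 62.4% of the listed reads of a library belonged to 4 names that are not mouse miRNAs, a 5′ adaptor and the sequences Cali_7, Cali_12 and Cali_24. They were kept out of the totals, and the sources used here do not explain the Cali names. If they were calibrators added in equal amounts, which is not known, levels per Cali read would be the nearest to absolute amounts. The gates were checked with lists of miRNAs known from particular cell types, summed in RPM (reads per 1000000 miRNA reads after TMM normalisation, which trims extreme miRNAs when scaling the totals). The basal epithelial list (both arms of miR-205, miR-221-3p and miR-222-3p) summed to 55279 and 84476 RPM in basal libraries, against 7680 and 5864 RPM in luminal libraries. Most of it was miR-205-5p, at 51956 and 80905 RPM in basal and 6686 and 4605 RPM in luminal libraries. Only this 1 of the 4 members passed the test, as higher in basal libraries, as did 0.58% of the 345 tested miRNAs. The others had log2 fold changes above 0 but did not pass. The epithelial miR-200 list without miR-200c-3p, the miRNA with the most reads in every library, summed to 33866 and 20920 RPM in basal and 31745 and 40433 RPM in luminal libraries. With miR-200c-3p the list summed to 188163 and 478914 RPM in basal and 861961 and 914897 RPM in luminal libraries, and none of its 5 members passed the test. The lists of other cell types also differed, and their part in the results was not tested. The endothelial list of both miR-126a arms summed to 55057 and 34556 RPM in basal and 10579 and 966 RPM in luminal libraries. The smooth muscle list (miR-143-3p and both arms of miR-145a) summed to 1058 and 1983 RPM in basal and 9538 and 12469 in luminal libraries. Of its 3 members, 2 passed the test as lower in basal libraries, as did 3.77% of the 345 tested miRNAs. The fibroblast list of 4 arms of miR-199 and miR-214 stood at 573 and 629 RPM in basal and 1172 and 1142 RPM in luminal libraries. The leukocyte list of 4 arms stood at 3481 and 6461 RPM in basal and 2955 and 1909 RPM in luminal libraries, most of it miR-150-5p. That miRNA had a log2 fold change of 1.28, and the other 3 arms had values below 0, miR-142-3p at -1.74, miR-142-5p at -1.69 and miR-223-3p at -2.35. The erythroid list (miR-451a and miR-144-3p) stood at 170 and 3019 RPM in basal and 206 and 646 RPM in luminal libraries, and the neural list of 3 at 14.9 and 13.7 RPM in basal and 281 and 132 RPM in luminal libraries. The liver miRNA miR-122-5p stood at 0 and 254 RPM in basal and 6.88 and 0.813 RPM in luminal libraries. No tested member of the fibroblast, endothelial, leukocyte or erythroid lists passed, and miR-9-5p of the neural list passed as lower in basal libraries. The erythroid miR-144-3p, the neural miR-124-3p and miR-122-5p were below the filter and were not tested.

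miR-148a-3p, the most abundant member, was lower in basal than in luminal cells. It had 7684 and 13263 reads in the basal libraries (replicates 1 and 2, an order kept throughout) against 33190 and 24897 reads in the luminal libraries, although basal replicate 2 was the most deeply sequenced library. These reads gave 2870 and 3948 RPM in basal libraries, against 25381 and 20233 RPM in luminal libraries. Both basal libraries lay far below both luminal libraries, and the gap between the groups was wider than the spread within either. Basal libraries averaged 3409 ± 762 RPM and luminal libraries 22807 ± 3641 RPM (SD, n = 2 each). The log2 fold change, basal over luminal, was -2.74 (standard error 0.68, 95% interval -4.17 to -1.31), a level 6.69-fold higher in luminal cells, and it passed the threshold of 0.05 (adjusted p = 0.0236, edgeR quasi-likelihood F test, Benjamini-Hochberg over the 345 miRNAs tested). In the same fit 15 of the 345 miRNAs (4.35%) were called, 13 (3.77%) as lower in basal cells and 2 (0.58%) as higher, so a call in this direction was uncommon, and miR-148a-3p had the highest mean level of the 13. Its fold change was not extreme, since 26 of the 345 had a lower log2 fold change.

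The rank of miR-148a-3p within each library shows the same contrast without any scaling between libraries. It was number 34 and number 28 among the miRNAs of the basal libraries, and number 4 in each luminal library. As a share of miRNA reads it stood at 0.414% (95% exact binomial interval 0.405 to 0.423) and 0.405% (0.398 to 0.412) in basal libraries, against 2.096% (2.07 to 2.12) and 1.66% (1.64 to 1.68) in luminal libraries. The basal shares were nearly equal to each other, and the luminal shares differed from each other by more than counting error. These intervals cover counting error only, since reads amplified without molecular identifiers are not independent molecules. With miR-200c-3p taken out of the total, the shares were 0.533% and 0.762% in basal libraries and 6.66% and 5.85% in luminal libraries.

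The call depended on the scaling between libraries. With library totals alone the log2 fold change of miR-148a-3p was -2.20 and did not pass (adjusted p = 0.130), and with scaling to the Cali reads it was -0.84 (standard error 1.34, adjusted p = 0.687). Per 1000 Cali reads, miR-148a-3p had 9.96 and 3.45 reads in basal libraries, against 12.7 and 11.3 reads in luminal libraries. The groups still did not overlap on this scale, but basal replicate 1 came close to the luminal libraries. The median log2 fold change over the 345 miRNAs, -0.0053 as reported, was 0.56 with library totals, 1.99 with the Cali reads and 0.31 with upper-quartile factors. Against each median, miR-148a-3p stayed lower in basal libraries by more than 2 on the log2 scale. A change of scaling shifts all miRNAs nearly alike, so this distance could hardly change and does not decide between the scalings. The calls over all miRNAs, 2 higher and 13 lower in basal cells, became 1 and 1, 3 and 0, and 3 and 10 under these scalings. The call of miR-148a-3p also ended without basal replicate 1 (adjusted p = 0.144) or basal replicate 2 (0.0773) and with a minimum mean of 10 RPM (0.0511), with the log2 fold change between -2.97 and -2.54 in these 3 fits. It passed in 8 of the 13 alternatives, DESeq2 among them (adjusted p = 1.12e-04), which called 8.22% of its tested miRNAs as lower in basal cells. In bulk RNA of sorted cells, fewer cells of a type and less miRNA per cell cannot be told apart.

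**Figure D1:**
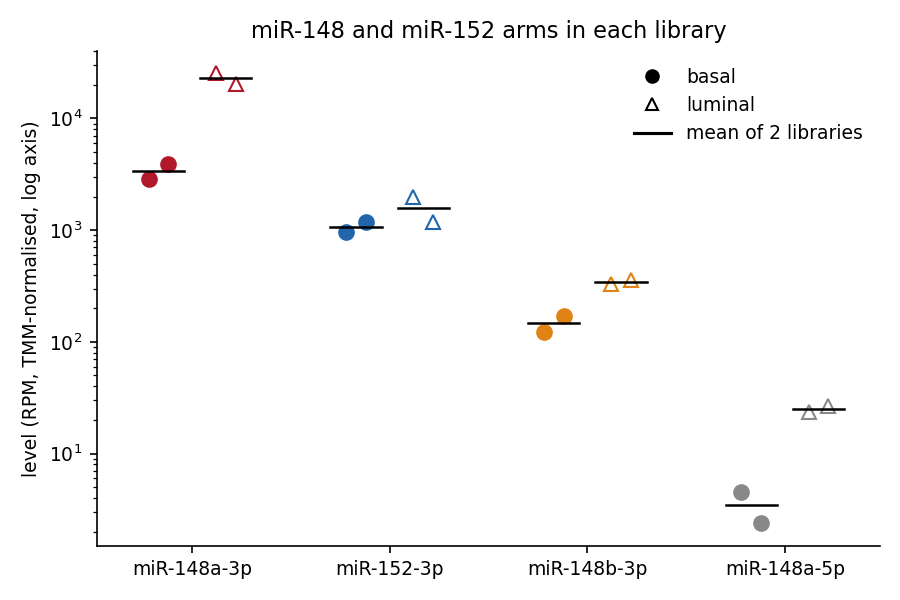
Level of the 4 tested arms in each library, in RPM on a log axis, with filled circles for basal libraries, open triangles for luminal libraries and a line at each mean of 2. The basal values of miR-148a-3p lie at 2870 and 3948 RPM, below the luminal values of 25381 and 20233 RPM, whereas the basal values of miR-152-3p fall close to the lower luminal value.

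miR-148a-5p, the opposite arm of the same hairpin, was sparse. It had 12 and 8 reads in basal libraries, against 31 and 33 reads in luminal libraries. Basal libraries averaged 3.43 ± 1.49 RPM and luminal libraries 25.3 ± 2.20 RPM (SD, n = 2 each), with no overlap between the groups. Its log2 fold change of -2.86 (standard error 1.496) was near that of the 3p arm, but the difference did not pass (edgeR adjusted p = 0.363), and its 95% interval ran from -6.02 to 0.29. miR-148a-3p outnumbered miR-148a-5p by 640 and 1658 to 1 in basal libraries, and by 1071 and 754 to 1 in luminal libraries. The basal libraries thus lay on either side of the luminal ones, and with so few 5p reads and 2 libraries a group no difference in the arm ratio could be shown (exact permutation test, 2-sided, p = 1, where the smallest possible is 0.333).

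miR-152-3p, the second member by level, did not pass the test. It had 2561 and 3960 reads in basal libraries, against 2615 and 1444 reads in luminal libraries. These were 957 and 1179 RPM in basal libraries, against 2000 and 1173 RPM in luminal libraries. The groups overlapped, because basal replicate 2 and luminal replicate 2 had nearly the same level. Basal libraries averaged 1068 ± 157 RPM and luminal libraries 1587 ± 584 RPM (SD, n = 2 each). Its log2 fold change of -0.57 had a standard error of 0.59 and a 95% interval from -1.80 to 0.66 (edgeR adjusted p = 0.686). As a share of miRNA reads miR-152-3p averaged 0.129% ± 0.0122 over the basal libraries and 0.131% ± 0.0488 over the luminal ones (SD, n = 2 each). Its log2 fold change became -0.014 with library totals alone and 1.39 with scaling to the Cali reads, so its direction depended on the scaling.

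miR-148b-3p, the least abundant 3p arm, had 326 and 572 reads in basal libraries, against 430 and 441 reads in luminal libraries. These were 122 and 170 RPM in basal libraries, against 329 and 358 RPM in luminal libraries. The groups did not overlap, and basal libraries averaged 146 ± 34.3 RPM and luminal libraries 344 ± 20.9 RPM (SD, n = 2 each). Its log2 fold change of -1.23 (standard error 0.67, 95% interval -2.64 to 0.17) did not pass (edgeR adjusted p = 0.381). With scaling to the Cali reads it was 0.65. Of the 345 tested miRNAs, 178 (51.6%) had no overlap between the groups, 84 of them (24.3%) with the lower values in basal libraries, so the lack of overlap alone sets neither miR-148b-3p nor miR-148a-5p apart.

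The other 5p arms had too few reads for the filter. miR-148b-5p had 6 and 0 reads in basal libraries, against 9 and 0 reads in luminal libraries. miR-152-5p had 5 and 0 reads in basal libraries, against 7 and 3 reads in luminal libraries. For each of these arms the 95% exact binomial interval at a count of 0 reached 1.13e-04% of the miRNA reads of basal replicate 2. For miR-148b-5p in luminal replicate 2 it reached 2.46e-04%. The 3p arms held from 99.78% to 99.96% of the reads of the family in a library, with 23 and 8 5p reads in basal libraries and 47 and 36 in luminal libraries. The 3p arm thus prevailed in both cell types.

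**Figure D2:**
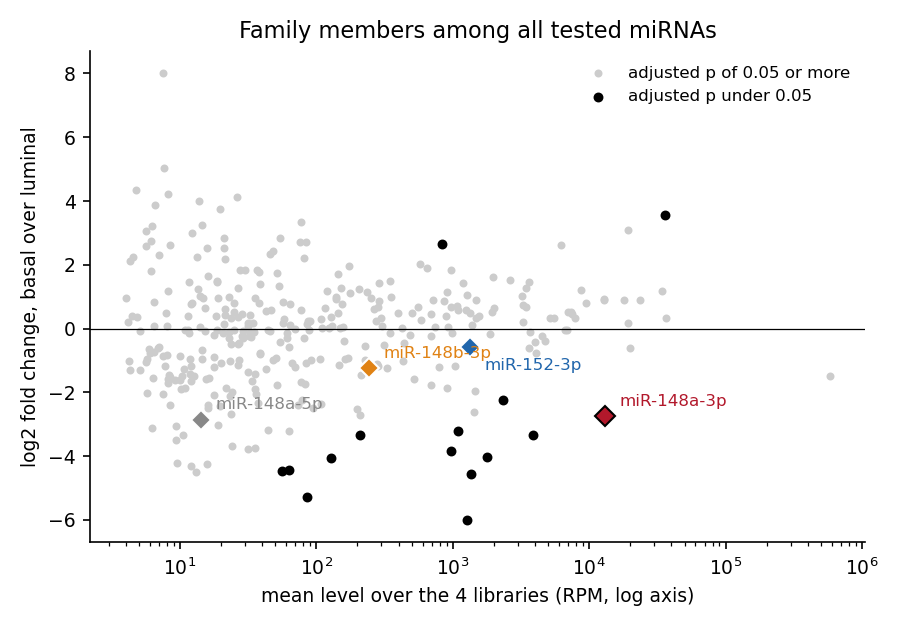
Log2 fold change, basal over luminal, against mean level in RPM (log axis) for the 345 tested miRNAs, in black where the adjusted p was under 0.05, with the family members as coloured diamonds. miR-148a-3p at -2.74 lies to the right of the other miRNAs called below 0, while miR-148b-3p at -1.23 and miR-152-3p at -0.57 lie among the uncalled miRNAs.

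Of the 6 arms, 4 passed the filter on low counts, and 1 of these was called, as lower in basal cells, beside 3.77% of all tested miRNAs. All 4 had log2 fold changes below 0, with a median of -1.99, where 173 of all 345 (50.1%) were below 0. As the filter keeps an arm that is high in only 1 group, these counts describe the arms that passed and not the whole family. Summed over all arms, the family stood at 3957 and 5300 RPM in basal libraries, against 27746 and 21794 RPM in luminal libraries. That sum was 0.571% and 0.543% of the miRNA reads in basal libraries and 2.29% and 1.79% in luminal libraries. If no read was dropped or counted for more than 1 arm, which is not known, that sum does not depend on how reads were divided among the near-identical 3p arms. It moved with miR-148a-3p, which supplied most of it in every library.

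The make-up of the family differed between the basal and the luminal libraries, a measure that does not depend on scaling between libraries. miR-148a-3p made up 72.7% (95% exact binomial interval 71.8 to 73.5) and 74.5% (73.9 to 75.2) of the family's 3p reads in basal libraries, against 91.6% (91.3 to 91.9) and 93.0% (92.6 to 93.3) in luminal libraries. miR-152-3p made up 24.2% and 22.3% in basal libraries, against 7.22% and 5.39% in luminal libraries. miR-148b-3p made up 3.08% and 3.21% in basal libraries, against 1.19% and 1.65% in luminal libraries. For each of the 3 arms the basal libraries lay apart from the luminal ones by more than the spread within a group. The 3 shares of a library are not independent, since a larger share of an arm leaves less for the others. In every library the order of levels was miR-148a-3p, miR-152-3p, miR-148b-3p and miR-148a-5p. These levels are read counts, which need not be proportional to molecules between different miRNAs.

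**Figure D3:**
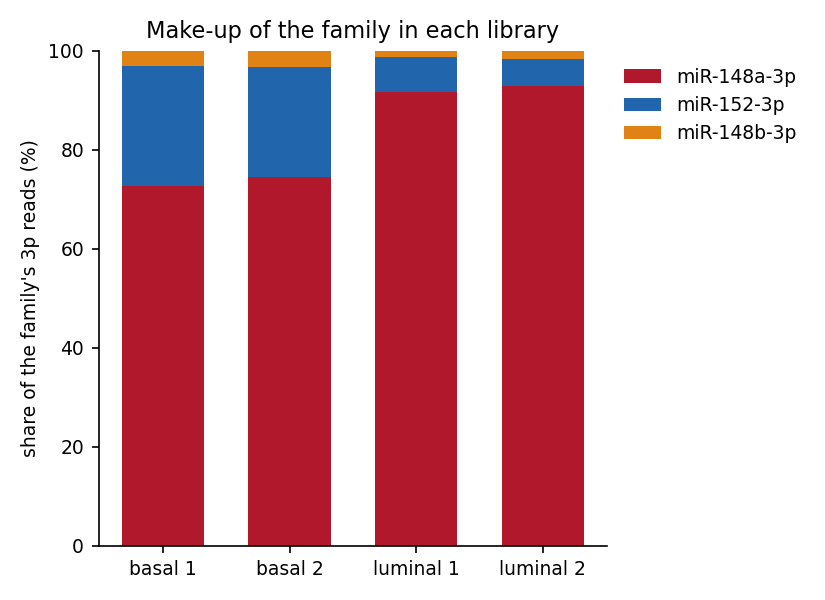
Stacked bars of the share, in percent, that each 3p arm takes of the family's 3p reads, 1 bar for each library, basal libraries on the left. miR-152-3p takes 24.2% and 22.3% of the bars of the basal libraries and 7.22% and 5.39% of those of the luminal libraries.

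Ratios between members gave the size of this shift. There were 3.0 and 3.35 reads of miR-148a-3p for each read of miR-152-3p in basal libraries, against 12.7 and 17.2 in luminal libraries. On the log2 scale the ratio was lower in basal libraries by a difference of -2.22, a ratio 4.67-fold higher in luminal libraries. There were 23.6 and 23.2 reads of miR-148a-3p for each read of miR-148b-3p in basal libraries, against 77.2 and 56.5 in luminal libraries, a log2 difference of -1.498. The ratio of miR-148b-3p to miR-152-3p was 0.127 and 0.144 in basal libraries, against 0.164 and 0.305 in luminal libraries, a log2 difference of -0.72. Neither group overlapped the other in any of these ratios, and the ratio of miR-148a-3p to miR-148b-3p was nearly identical in the basal libraries. Among single miRNAs, 51.6% of those tested had no overlap, and the share for ratios of other miRNA pairs was not computed. The ratio of miR-148b-3p to miR-152-3p also follows from the other 2. An exact permutation test, 2-sided, gave p = 0.333 for each of the 3, which is the smallest value that 2 libraries against 2 allow (0.444 after adjustment over the 4 ratios compared, the arm ratio included). The design therefore cannot show by this test that the members differ in their change.

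**Figure D4:**
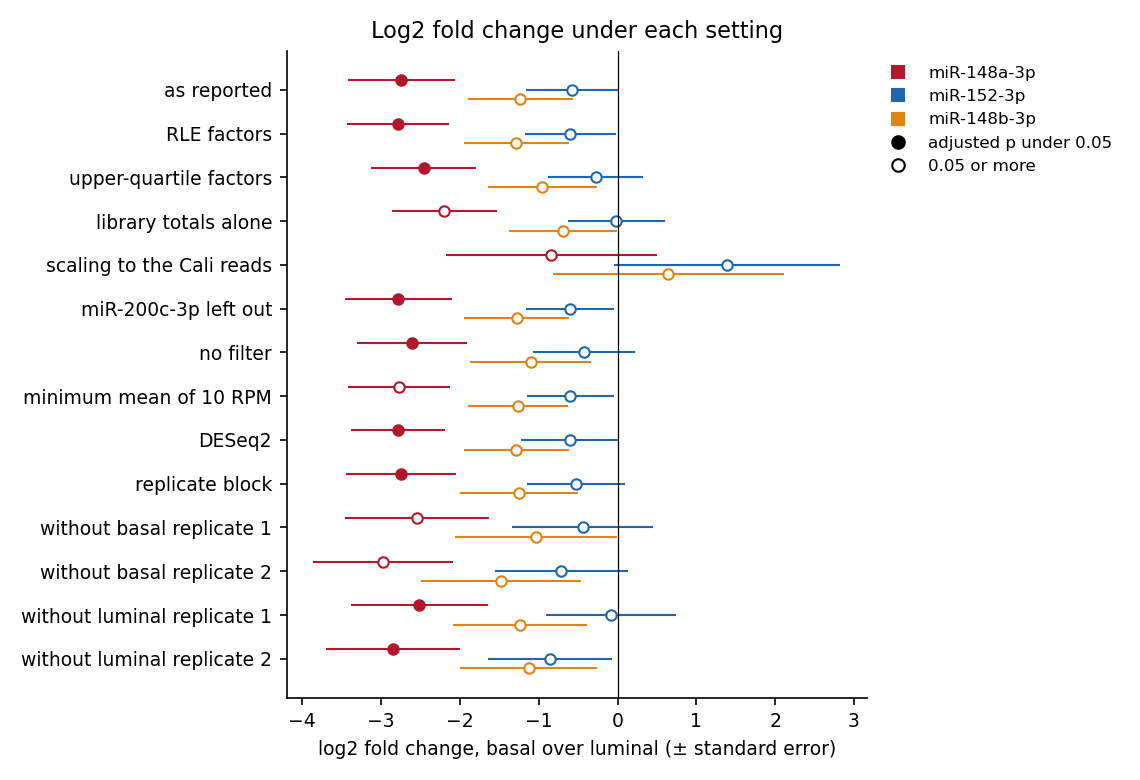
Log2 fold change, basal over luminal, with its standard error for the 3p arms as reported and under 13 other settings, with filled points where the adjusted p was under 0.05. The points of miR-148a-3p run from -2.97 to -0.84, left of those of miR-148b-3p and miR-152-3p in every setting, and those of miR-148b-3p and miR-152-3p lie above 0, at 0.65 and 1.39, under scaling to the Cali reads.

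The miRNAs whose profile over the 4 libraries was most like that of miR-148a-3p were miR-196a-5p, miR-143-3p, miR-3968, miR-127-3p and miR-6240. Likeness was the root mean square difference of log2 RPM after each miRNA was centred on its own mean, over 175 tested miRNAs whose mean reached 50 RPM. It was 0.40, 0.40, 0.48, 0.57 and 0.58 for these 5, against a median of 1.54. miR-196a-5p, encoded in Hox clusters, stood at 59.8 and 59.2 RPM in basal libraries, against 473 and 206 RPM in luminal libraries, a log2 fold change of -2.51 (edgeR adjusted p = 0.0651). miR-143-3p, known from smooth muscle, stood at 841 and 790 RPM in basal libraries, against 4946 and 2687 RPM in luminal libraries, a log2 fold change of -2.23 (edgeR adjusted p = 0.0466). miR-127-3p, of the imprinted Dlk1-Dio3 cluster, stood at 21.3 and 89.3 RPM in basal libraries, against 436 and 294 RPM in luminal libraries, a log2 fold change of -2.72 (edgeR adjusted p = 0.0651). Of these 5, miR-143-3p alone passed the test, as lower in basal libraries, where 3.77% of the 345 tested miRNAs did. The 5 were picked for a profile like that of miR-148a-3p in these same libraries. Their lower basal values thus follow from the choice and are no separate result. Of the seed relatives, miR-148b-3p stood at place 11 (0.77) and miR-152-3p at place 40 (1.12) among the 174 miRNAs compared with miR-148a-3p, both nearer to it than the median.

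Other miRNAs reported as androgen-responsive in human prostate cell lines or tumours did not share one direction. Of 10 such miRNAs outside the family, all were tested, 1 was lower in basal cells (over all tested miRNAs, 3.77%), none was higher (0.58%) and 9 did not pass. Their log2 fold changes ran from -3.21 to 2.85. They lay below 0 for 5 and above 0 for 5, with a median of 0.045, where the median of all 345 was -0.0053. miR-375-3p, best known from pancreatic islets and other secretory cells, was the called one, at 230 and 194 RPM in basal libraries, against 957 and 2969 RPM in luminal libraries, a log2 fold change of -3.21 (edgeR adjusted p = 0.0128). The most abundant of the 10, miR-125b-5p, stood at 33693 and 47072 RPM in basal libraries, against 35915 and 28514 RPM in luminal libraries, a log2 fold change of 0.33 (edgeR adjusted p = 0.878). miR-29a-3p and miR-29b-3p, which like the miR-148/miR-152 family repress DNA methyltransferases, had log2 fold changes of 0.17 and -0.10 (edgeR adjusted p = 0.937 and 0.978), and miR-141-3p of the epithelial miR-200 family had -0.38 (adjusted p = 0.7996).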

How the data were processed

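The deposited table gives whole-number read counts per miRNA name, not normalized, with a separate list for each library, per the file headers. BLAST appears in the table's name as the search tool. Not given in the sources used here are its version, the miRNA database, the mismatches allowed, the trimming and the treatment of reads with several matches. A name not listed in a library was taken as 0 reads, and the unnamed sum below each list was left out. Counts were fitted with edgeR 4.0.16 in R 4.3.3 with cell type as the only term (TMM factors, filterByExpr with a minimum count of 10 and a total of 15, quasi-likelihood F test, 2-sided, Benjamini-Hochberg over 345 miRNAs, threshold 0.05). The method was also tested on simulated counts. These had a common dispersion and the same starting proportions in every library, so they do not test the choice of scaling between libraries. The standard error is the log2 fold change divided by the square root of F. RPM uses TMM-scaled totals of all miRNA reads. Other settings, DESeq2 1.42.0 among them, were tried. Exact permutation tests used SciPy 1.17.1. Log2 RPM for likeness used a prior count of 2.

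The named miRNAs were all arms of the family, the 5 nearest in profile to miR-148a-3p whose mean reached 50 RPM, and the called and most abundant members of the androgen-responsive list. The members, lists and tests were chosen with earlier results of these data known. miR-142a of the leukocyte list was matched to its older name, miR-142.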

Additional observations from a re-analysis of the deposited data

How the results depend on the processing

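Over all miRNAs, 15 of 345 were called, and the count was 13 with RLE and 13 with upper-quartile factors, 14 with miR-200c-3p left out and 21 with no filter. It was 2 with library totals alone, 3 with scaling to the Cali reads, 5 with a minimum mean of 10 RPM, 33 in DESeq2, and between 9 (without basal replicate 1) and 61 (without luminal replicate 1) when 1 library was left out. The log2 fold change of miR-148a-3p stayed below 0 in all 13 alternatives but no longer passed with library totals alone (-2.20), scaling to the Cali reads (-0.84), a minimum mean of 10 RPM (-2.77), without basal replicate 1 (adjusted p = 0.144) or without basal replicate 2 (0.0773). Without 1 library it ranged from -2.97 to -2.52, and the alternatives gave adjusted p-values from 1.12e-04 to 0.687. miR-148b-3p and miR-152-3p were above 0 only with scaling to the Cali reads (0.65 and 1.39) and, like miR-148a-5p, passed in none of the 13. The log2 ratio of the summed family was -2.42, or -1.86 with library totals alone and -0.71 with scaling to the Cali reads, where the groups overlapped. Why these scalings differ was not tested. With both arms summed or a pseudocount of 1 read, the ratios between members moved by less than the spread between libraries. Leaving out 1 of 2 libraries can only move a ratio by less than that spread, so those alternatives could not show a larger move. The log2 difference of miR-148b-3p to miR-152-3p ran from -1.17 without luminal replicate 1 to -0.28 without luminal replicate 2. Where a library was left out, the lone library of its group was assumed to vary like the other group.

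With the replicate number as a block there were 23 calls, and miR-148a-3p stood at -2.75. No label says that a number marks a shared animal or day. The deviations of same-numbered libraries correlated at 0.153 over 345 miRNAs, which are not independent, and 2 pairs do not show that the numbers pair the libraries.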

Other observations

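The seed letters of the family also open another set of miRNAs, shifted by 1 base. Besides the family, 7 mature mouse miRNAs in the RefSeq table begin with CAGUGCA at bases 1 to 7, among them miR-130a-3p, miR-130b-3p and miR-301a-3p of the miR-130/miR-301 family, and this set was picked by sequence outside the rule for named miRNAs. miR-130a-3p stood at 1725 and 1748 RPM in basal libraries, against 1039 and 260 RPM in luminal libraries. The groups did not overlap, as for 51.6% of all tested miRNAs. The log2 fold change of miR-130a-3p was 1.42 and did not pass (edgeR adjusted p = 0.309). miR-301a-3p stood at 218 and 267 RPM in basal libraries, against 145 and 80.5 RPM in luminal libraries (log2 fold change 1.11, edgeR adjusted p = 0.453). miR-130b-3p, at 0.374 and 8.63 RPM in basal libraries and 5.35 and 1.63 RPM in luminal libraries, was below the filter. Both tested values lay above 0, on the other side from the log2 fold changes of the tested miR-148/miR-152 arms as reported. With scaling to the Cali reads, miR-148b-3p and miR-152-3p lay above 0 as well, at 0.65 and 1.39. Whether the sets differ was not tested.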
